A study of Rattus norvegicus with 12 samples.

Results

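The responses to rapamycin that a rapamycin-sensitive and a rapamycin-resistant rat liver epithelial cell line had in common included falls of some genes of glycolysis, sterol synthesis, the ATF4 amino acid response and endoplasmic reticulum chaperones, and rises of Klhl24, Ccnd1 and Eif4b. The effect was averaged over both lines, as log2 intensity with rapamycin minus log2 intensity with vehicle, and the average gave each line the same weight. Of the 31042 probe sets other than array controls, 12182 were bright enough for the test, with a mean intensity of 100 or more in vehicle or rapamycin plates of WB-F344 and likewise of WB311. A response was termed shared where the average had a limma adjusted p under 0.05 and a fold change of at least 1.2, each line's own 95% interval left out 0 on the same side, and the 95% interval of the difference between the lines lay within 1.5-fold either way. This held for 473 probe sets. Of these, 69 had no single gene symbol, and the rest stand for 386 genes, 147 higher and 239 lower with rapamycin.

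mTORC1 is a kinase complex that couples amino acid and growth factor signals to protein, lipid and nucleotide synthesis, and rapamycin binds FKBP12 and inhibits part of its activity. Among the transcription factors known to act downstream of mTORC1 are HIF-1, which induces glycolytic enzymes, the SREBPs, which induce enzymes of cholesterol and fatty acid synthesis, and ATF4, which induces amino acid synthesis, amino acid transport and tRNA charging. In hepatic cells the same complex restrains autophagy and the lysosomal factor TFEB.

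WB-F344 is a non-tumorigenic epithelial line from rat liver with a doubling time of 42 hr, labeled sensitive to rapamycin. WB311 is a tumorigenic line that arose from it without added carcinogen, with a doubling time of 15.5 hr, labeled resistant. Each line was exposed to vehicle (DMSO) or 50 nM rapamycin for 24 hr, and RNA from 3 plates per line and treatment was measured on 12 arrays. No genotype beyond the line was given, each state is represented by 1 line, and the plates are separate dishes of that line, so that p-values measure the spread between plates.

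Median intensity per array was 59.5 to 62.9, and plates of 1 group correlated at 0.964 or above. The typical SD between plates on the log2 scale for vehicle and rapamycin plates was 0.146 and 0.123 in WB-F344, against 0.072 and 0.060 in WB311, and WB-F344 plate 2 stood apart from plates 1 and 3 in both treatments. The difference between 3' and 5' control probe sets, a sign of RNA integrity, moved by -0.025 for Gapdh and -0.094 for beta-actin with rapamycin (log2; exact two-sided permutation p = 0.765 and 0.47, smallest possible 0.005). Of the markers with a probe set, 1 of 10 hepatocyte, 3 of 8 biliary and progenitor, 5 of 9 mesenchymal, 0 of 5 endothelial and 1 of 7 leukocyte genes were bright enough to be tested, so that most hepatocyte markers were dim in these cultures. In such bulk RNA, fewer cells of a state and less RNA per cell cannot be told apart. At the intensity limit, Klf2 was just inside with a deciding group average of 100.02, and Dag1 was just outside with 99.92.

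The average effect was called for 1427 of 12182 probe sets (11.7%), 580 higher (4.76%) and 847 lower (6.95%) with rapamycin. With cyclic loess scaling this split changed to 754 higher and 652 lower. Of the 1427, 473 were shared (3.88% of those tested), 187 higher (1.54%) and 286 lower (2.35%), and with cyclic loess these were 252 and 249. Another 494 were neither shared nor called for a difference between the lines. The difference between the lines was called for 1227 probe sets (10.1%), among them 468 of the 1427, of which 452 moved more in WB-F344. The average thus holds many genes that moved in WB-F344 only or mainly, which is why the shared criterion is used below. In 163 of the 1427 the estimates of the lines had opposite signs.

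Shared changes were small. The median was 0.35 for rises (0.38 in WB-F344 and 0.32 in WB311) and -0.34 for falls (-0.39 and -0.32), and 19 of the 473 reached an average of 1.5-fold. None reached 2-fold, a limit that the average fold of 8 called but not shared probe sets did reach. The similar size in both lines was a condition for entry and is no result. The plates of the treatments did not overlap in either line for 407 of the 473, against 1366 of all 12182 tested (11.2%). The shared criterion, with intervals that leave out 0 in each line, itself favors such separation, so this contrast is no independent support. The 15 largest rises and falls named below were taken from these 407. For them the lack of overlap was a condition for entry and is no result. Only 147 of the 473 were called in each line by itself, where the standard error was larger (median 0.097 for 1 line and 0.069 for the average).

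Because the lines share no plates, the calls of one line can be looked up in the other. WB311 by itself gave 401 calls (3.29%) and WB-F344 2715 (22.3%). Both counts used a variance per probe set common to the 4 groups, although plates of WB-F344 spread more than those of WB311. With array weights WB311 gave 1060 calls, so the counts are no measure of the size of the response in each line. The number for WB311 fell whichever of its arrays was left out. There were 148, 158 and 189 calls without WB311 vehicle plate 1, 2 or 3, and 151, 136 and 147 without WB311 rapamycin plate 1, 2 or 3. Without vehicle plate 2 of WB-F344, the other line, the number for WB311 rose to 646. Of the 198 probe sets called lower in WB311, 172 were also below 0 in WB-F344 (86.9%), compared with 69.8% of all tested probe sets that were below 0 in WB311. Of the 203 called higher in WB311, 116 were above 0 in WB-F344 (57.1%), compared with 50.0% of all tested. In the other direction, 607 of 838 rises (72.4%, against 64.5%) and 1176 of 1877 falls (62.7%, against 56.0%) of WB-F344 had the same sign in WB311. Across the 12182 probe sets the effects in the lines correlated weakly (Pearson r = 0.246, Spearman rho = 0.257), a description over probe sets that are not independent. Called in each line were 224 probe sets, 177 in the same direction and 47 in opposite directions.

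**Figure D1:**
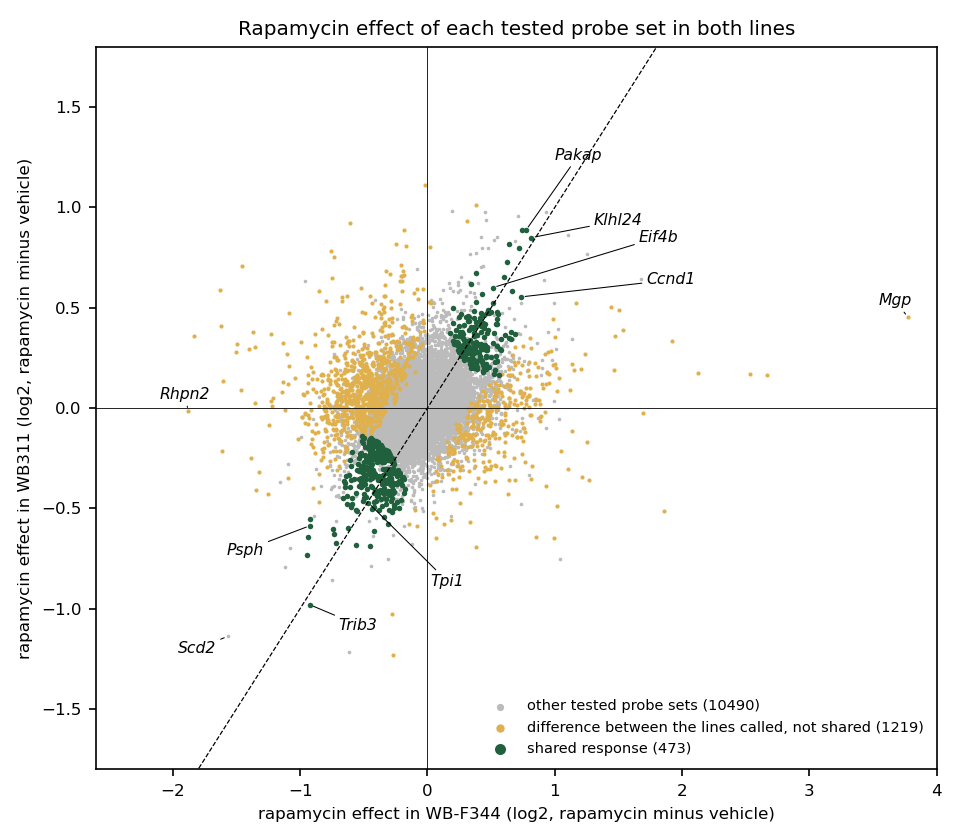
Rapamycin effect of each of the 12182 tested probe sets in WB-F344 (horizontal axis) and WB311 (vertical axis), both as log2 of rapamycin minus vehicle over 3 plates each, with the line of equal effect dashed. The 473 shared probe sets lie near that line and within 1 log2 unit of 0, while probe sets called for a difference, such as Mgp and Rhpn2, spread mainly along the WB-F344 axis.

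Klhl24, a kelch-repeat adaptor of cullin ubiquitin ligases, gave the largest shared rise. Its intensities were 411, 519 and 390 with vehicle and 742, 848 and 719 with rapamycin in WB-F344, and 226, 194 and 216 with vehicle and 378, 382 and 383 with rapamycin in WB311. Every rapamycin plate lay above every vehicle plate of the same line, and WB311 with rapamycin was still below WB-F344 with vehicle. The average effect was 0.83 ± 0.076 (log2, SE), or 1.78-fold, with a limma adjusted p of 4.7e-05. All 3 of its tested probe sets were shared, with averages of 0.76 to 0.83.

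Ccnd1, which encodes cyclin D1, the partner of the kinases that start G1 progression, also rose in both lines. Its intensities were 1218, 1142 and 1284 with vehicle and 2308, 1654 and 2157 with rapamycin in WB-F344, and 1478, 1364 and 1443 with vehicle and 2125, 2124 and 2041 with rapamycin in WB311. The plates did not overlap in either line, and the average was 0.64 ± 0.076, or 1.56-fold (limma adjusted p = 0.00018). Its 3 probe sets gave 0.51 to 0.64. With cyclic loess Ccnd1 was called but not shared. Other genes of this phase moved otherwise: Ccne1, which encodes cyclin E1, was at -0.45 in WB-F344 and 0.04 in WB311, and Cdkn1b, the inhibitor p27, was at 0.09 and 0.08 and not called.

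Psen2, a catalytic subunit of gamma-secretase, measured 640, 750 and 629 with vehicle and 998, 1104 and 1012 with rapamycin in WB-F344. In WB311 it measured 702, 638 and 708 with vehicle and 1077, 1131 and 1186 with rapamycin. The lines were at the same level, and the plates of the treatments lay well apart (average 0.68 ± 0.060, limma adjusted p = 4.2e-05).

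Pakap, which encodes an anchoring protein of protein kinase A, rose by 0.77 in WB-F344 and 0.89 in WB311 on the log2 scale, from 657, 787 and 653 to 1171, 1262 and 1140 in WB-F344 and from 62.3, 59.2 and 64.2 to 115, 115 and 113 in WB311 (average 0.83 ± 0.058, limma adjusted p = 7.8e-06). In WB311 it passed the intensity limit through the rapamycin plates alone, and with the limit in all 4 groups it was not tested.

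The other rises among the 15 largest were those of Ftx, a noncoding RNA (0.73), Adam33, a metalloprotease (0.63), Phyhd1, a dioxygenase (0.62), Eif4b (0.56), Dync2li1, a light intermediate chain of ciliary dynein (0.53), Ocln, a tight junction protein (0.53), Ifi27, an interferon-inducible gene (0.52), Rsrp1 (0.51) and Rbm39, which act in splicing (0.50), Tnfaip2 (0.50) and Sh3bp4, an adaptor of endocytosis (0.49), all as average log2. Probe sets of Rbm39 ranged from 0.17 to 0.51. All 15 were called for the average without any 1 array, while Adam33, Ftx, Dync2li1, Ocln and Rbm39 lost the shared status without 1 of 2 to 7 arrays. F2r, the thrombin receptor, was among the smaller shared rises at 0.39 (0.54 in WB-F344 and 0.23 in WB311), and it lost the shared status without WB311 vehicle plate 1 or WB311 rapamycin plate 3.

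Trib3, a pseudokinase that ATF4 induces and that binds Akt, gave the largest shared fall. Its intensities were 211, 232 and 197 with vehicle and 126, 125 and 89.5 with rapamycin in WB-F344. In WB311 they were 1122, 967 and 847 with vehicle and 450, 536 and 496 with rapamycin. WB311 had the higher level under both treatments, and the plates of the treatments did not overlap in either line. The average was -0.95 ± 0.099, or 1.94-fold lower (limma adjusted p = 9.5e-05), and the other probe set gave -0.61. Without WB311 vehicle plate 3 or WB311 rapamycin plate 2 it was called but no longer shared.

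Psph, which catalyzes the last step of serine synthesis, fell from 518, 517 and 492 to 275, 282 and 251 in WB-F344 and from 1459, 1451 and 1399 to 898, 1002 and 973 in WB311. The average was -0.75 ± 0.050 (limma adjusted p = 5.3e-06). The fall was larger in WB-F344 (-0.92 against -0.59), close to the 1.5-fold bound, and Psph was no longer shared when any of 5 arrays was left out. Mbnl3, an RNA-binding protein of the muscleblind family, fell by 0.79 on the log2 scale and lay equally near that bound, with 6 such arrays. Cndp2, a cytosolic dipeptidase, fell by 0.74, with a difference between the lines that was itself called (0.37, limma adjusted p = 0.015).

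The other falls among the 15 largest were those of Tpmt, thiopurine methyltransferase (-0.70), Acat2 (-0.67), Rrbp1, a ribosome receptor of the endoplasmic reticulum (-0.62), Fads1 (-0.61), Rnf113a1 (-0.56), Scly, selenocysteine lyase (-0.56), Pdk1 (-0.55), Steap1, a metalloreductase family member (-0.54), Hdhd2 (-0.54) and Dhcr7 (-0.54), as average log2, and 1 of 5 probe sets of Myh1 (-0.57). The other probe sets of Myh1 reached 0.25 and that of Hdhd2 was at 0.21, so that both remain uncertain at the level of the gene. Tpmt was nearly equal in both lines (-0.72 in WB-F344 and -0.67 in WB311).

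**Figure D2:**
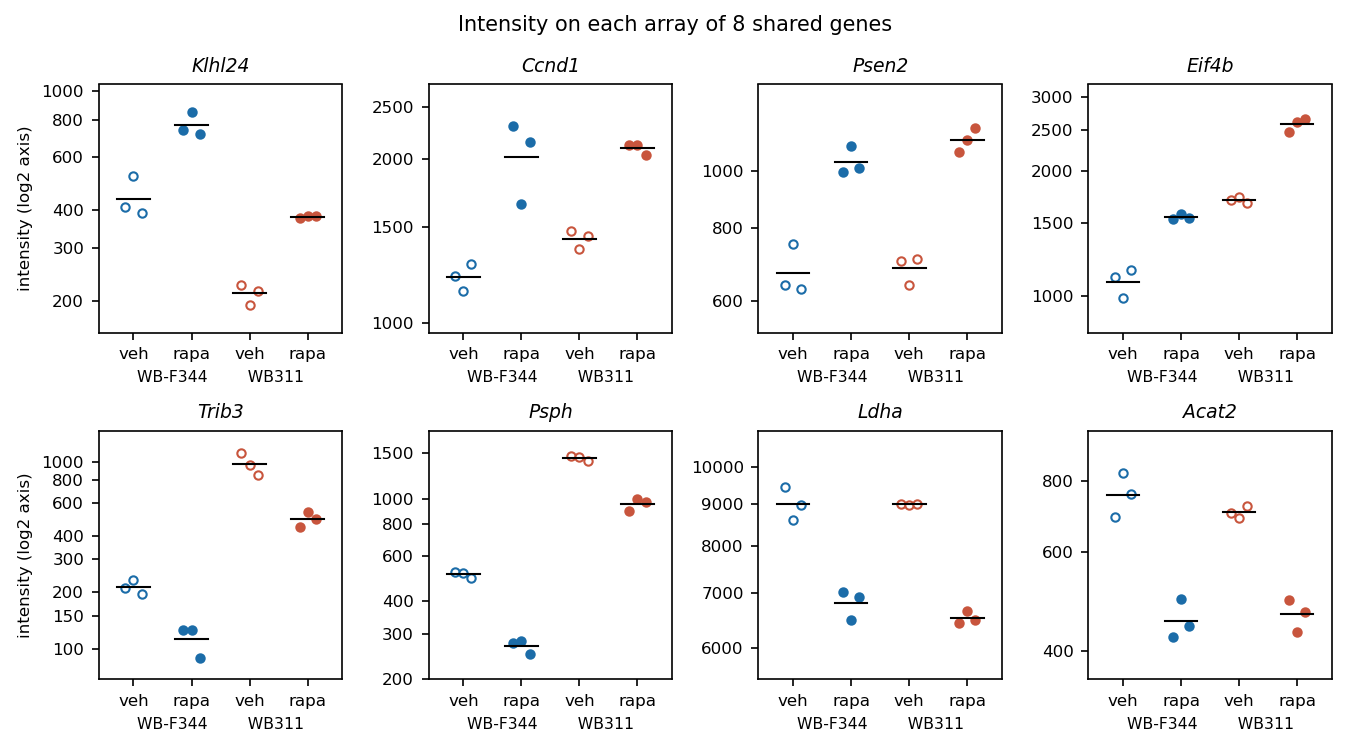
Intensity of 8 shared genes on each of the 12 arrays (vertical axis on a log2 scale), with vehicle plates open, rapamycin plates filled and a bar at the geometric mean of 3 plates. In the upper row every rapamycin plate lies above the vehicle plates of its line, and in the lower row every one lies below. For all genes shown but Ldha, this was a condition for entry to the largest shared rises or falls.

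Of 18 tested genes of glycolysis, the enzymes and transporters that turn glucose into pyruvate and lactate, 7 fell and 0 rose, 17 had an average below 0, and 5 falls were shared (27.8%, against 2.80% of all 7719 tested genes). As background for every list, 4.69% of all tested genes rose, 7.55% fell, 1.7% were shared rises, and 4516 of the 7719 had an average below 0. A difference between the lines was called for 895 of the 7719. For glycolysis, 1 of the 18 had a called difference. The median effect was -0.26 in WB-F344 and -0.28 in WB311, against -0.07 and 0.00 over all tested genes, and with cyclic loess it was -0.19 and -0.28. With median centring 11 fell and 8 were shared. This list holds genes that the study named from these arrays and is no independent evidence of its direction.

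Ldha, lactate dehydrogenase A, is among the brightest genes of these cells. It measured 9439, 8599 and 8978 with vehicle and 7032, 6498 and 6929 with rapamycin in WB-F344, and 9017, 8987 and 9007 with vehicle and 6446, 6666 and 6502 with rapamycin in WB311. The lines started from the same level and ended near the same level, with no overlap between treatments (average -0.43 ± 0.045, limma adjusted p = 9.3e-05).

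Tpi1, triose phosphate isomerase, fell from 7745, 7107 and 7577 to 5496, 5216 and 5525 in WB-F344 and from 6914, 6956 and 6916 to 5069, 5017 and 4906 in WB311, which is -0.47 in each line. Pdk1, the kinase that switches off pyruvate dehydrogenase, fell from 280 ± 7.0 to 185 ± 13 in WB-F344 and from 462 ± 28 to 328 ± 16 in WB311 (SD, 3 plates each, average -0.55 ± 0.054, limma adjusted p = 7.8e-05, other probe set -0.20). Pfkl, the liver form of phosphofructokinase, was at -0.46 and Aldoa, aldolase A, at -0.29. Slc2a3 (-0.54), a glucose transporter, and Slc16a1 (-0.31), a lactate transporter, fell without being shared.

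Other genes of the list moved less alike or missed the fold limit. Pfkp, the platelet form of phosphofructokinase, was at 0.13 in WB-F344 and -0.58 in WB311, a called difference (-0.71, limma adjusted p = 0.0034). Slc2a1, the main glucose transporter of growing cells, was at -0.12 and -0.39 with no call for the average. Pgk1, phosphoglycerate kinase, measured 7025, 6772 and 6591 with vehicle and 5576, 5356 and 5562 with rapamycin in WB-F344, and 7977, 7618 and 7402 against 6544, 6623 and 6722 in WB311. Its plates did not overlap and its limma adjusted p was 0.0016, but its average of -0.26 stayed just under 1.2-fold, as did that of Gpi (-0.25, limma adjusted p = 0.0024). The other probe set of Pgk1 was shared at -0.34.

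The promoter of Ldha is shown since it holds the letters of the HIF core. Sequences are from RefSeq (GRCr8), from 250 bases before to 50 after an annotated start, 5′ to 3′ on the strand of the gene, at chr1:106507842-106508141 on the + strand for Ldha, and capitals mark CACGTG, the E-box of MYC and TFEB, and ACGTG, the HIF core, on either strand (the E-box holds a core on both).
Ldha: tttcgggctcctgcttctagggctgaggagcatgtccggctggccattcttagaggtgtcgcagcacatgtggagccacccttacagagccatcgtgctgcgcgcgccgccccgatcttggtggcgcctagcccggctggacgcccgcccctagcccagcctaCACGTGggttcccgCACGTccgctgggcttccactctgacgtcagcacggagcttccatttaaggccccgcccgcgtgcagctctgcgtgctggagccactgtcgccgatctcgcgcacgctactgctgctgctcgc
The E-box begins at position -87 and another core at -73. In both strands ACGTG was present in 37.6% of 197 shared falls with a promoter, 26.2% of 122 shared rises and 28.3% of 6572 tested genes. Of 5 glycolysis genes with a promoter and a shared probe set 2 held it, against 9 of 16 tested glycolysis genes (56.2%), while 1 held the E-box, found in 11.7% of shared falls, 12.3% of shared rises and 10.5% of tested genes. These shares, and those of other motifs below, counted 1 promoter per gene. Aldoa has 3 listed promoters, and 1 that was not counted holds ACGTG. A match of letters is a description and not a bound site.

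Enzymes of cholesterol synthesis fell more uniformly than any other list of 8 or more tested genes, by the share that was shared. Of 19 tested genes 12 fell, 0 rose and 10 falls were shared (52.6%), 18 had an average below 0, and the median was -0.29 in WB-F344 and -0.41 in WB311. With cyclic loess these medians were -0.24 and -0.41.

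Acat2, the thiolase that makes acetoacetyl-CoA, measured 690, 827 and 760 with vehicle and 423, 495 and 442 with rapamycin in WB-F344, and 702, 689 and 724 against 492, 431 and 469 in WB311. Dhcr7, which catalyzes the last step to cholesterol, fell from 126, 136 and 158 to 91.1, 92.9 and 99.0 and from 414, 375 and 420 to 298, 278 and 274. Dhcr7 in WB-F344 and Hsd17b7 in WB311 passed the intensity limit through the vehicle plates alone, and with the limit in all 4 groups 10 of 17 tested genes fell and 8 were shared. Neither Acat2 nor Dhcr7 had overlapping plates, and the averages were -0.67 ± 0.062 and -0.54 ± 0.063 (limma adjusted p = 4.7e-05 and 0.00017).

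The other shared falls of the pathway were Hsd17b7 (-0.52), Sc5d (-0.46), Stard4, a sterol carrier (-0.44), Cyp51 (-0.42), Idi1 (-0.39), Fdps (-0.35), Mvk (-0.30) and Ebp (-0.28). Ebp lost its call without WB-F344 vehicle plate 1, WB-F344 rapamycin plate 2 or 3, or WB311 vehicle plate 3, with averages of -0.34 to -0.25 over all settings, and Sc5d lost the shared status without WB-F344 rapamycin plate 1 or WB311 vehicle plate 2. Mvd, mevalonate diphosphate decarboxylase, fell in both lines (-0.75 and -0.39), beyond the bound for a shared response, and Insig1, the sterol sensor, fell on average (-0.33) with an interval in WB-F344 that held 0. Msmo1 was at 0.04 in WB-F344 and -0.41 in WB311, a called difference (-0.46). Srebf2, which encodes the factor that induces these enzymes, was at 0.07 and -0.05 and not called.

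Of 13 tested genes of fatty acid synthesis 6 fell (46.2%, against 7.55% of all tested genes), 0 rose and 3 falls were shared, with medians of -0.25 and -0.34. Fads1, the delta-5 desaturase, fell from 888, 1146 and 1005 to 639, 689 and 636 in WB-F344 and from 1364, 1236 and 1444 to 912, 860 and 893 in WB311 (-0.62 and -0.60). Me1, malic enzyme, was at -0.34 and Elovl6, an elongase, at -0.29. Elovl6 lost its call without WB-F344 vehicle plate 2, WB-F344 rapamycin plate 1 or WB311 vehicle plate 1, with averages of -0.33 to -0.24 over all settings.

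The largest fall on this list was not shared by the criterion. Scd2, a stearoyl-CoA desaturase, measured 104, 198 and 157 with vehicle and 50.1, 67.7 and 36.7 with rapamycin in WB-F344, and 2480, 2086 and 2151 against 1082, 922 and 1047 in WB311. No plates overlapped and the average was -1.35 ± 0.163, or 2.55-fold lower (limma adjusted p = 0.0002). The difference was 0.43 with an interval from -0.28 to 1.14, too wide to call the effects alike, and in WB-F344 the gene passed the intensity limit through the vehicle plates alone. Fads2, the delta-6 desaturase, fell by 0.58 with a like limit (difference 0.28, interval -0.07 to 0.63). Srebf1 was at -0.24, under the fold limit.

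**Figure D3:**
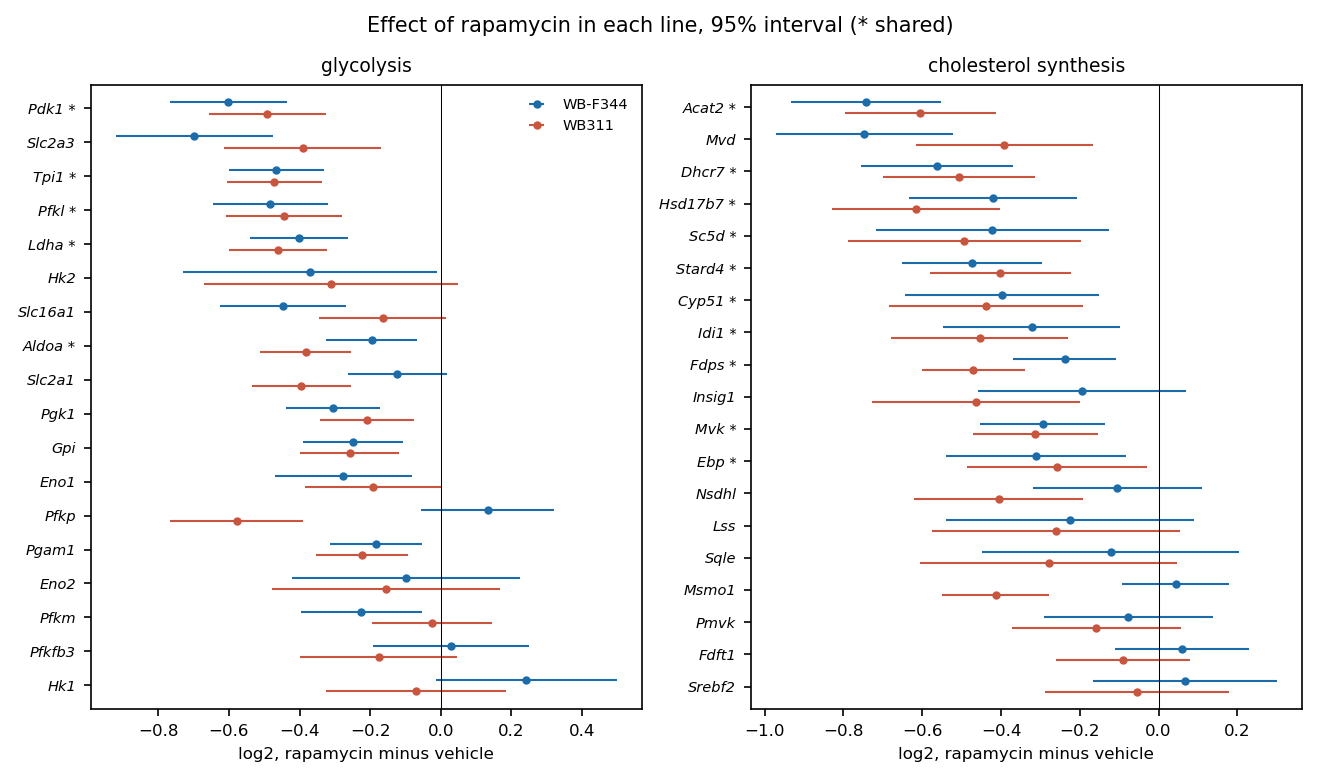
Rapamycin effect in WB-F344 (blue) and WB311 (red) for the 18 tested glycolysis genes and the 19 tested cholesterol synthesis genes, as log2 of rapamycin minus vehicle with the 95% interval of the limma fit, 3 plates per group, and an asterisk for shared genes. The intervals of the lines overlap for most genes of both panels, with Pfkp and Msmo1 as exceptions.

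Of 28 tested ATF4 targets and stress regulators 16 fell and 0 rose, 6 falls were shared (21.4%), and 7 members had a called difference between the lines. The median was -0.41 in WB-F344 and -0.25 in WB311, and -0.32 and -0.23 with cyclic loess. Beside Trib3 and Psph, the shared falls were Slc1a5, a glutamine transporter (-0.45), Shmt2, the mitochondrial serine hydroxymethyltransferase (-0.44), Asns, asparagine synthetase (-0.43), and Aldh18a1, which begins proline synthesis (-0.34).

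Ddit3, which encodes the stress factor CHOP, measured 242, 270 and 259 with vehicle and 124, 135 and 107 with rapamycin in WB-F344, and 263, 229 and 269 against 151, 160 and 158 in WB311. The plates did not overlap, and the average was -0.89 ± 0.067 (limma adjusted p = 1.1e-05), but the difference of 0.38 had an interval from 0.09 to 0.68 and so passed the bound. Nupr1 (-0.96) and Atf5 (-0.80), both stress-induced nuclear factors, also fell in both lines with intervals too wide for a shared call. Atf4 itself was at -0.18 in WB-F344 and -0.19 in WB311, under the fold limit (limma adjusted p = 0.017).

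Genes on the same list that differed between the lines did so in both directions. Psat1 (-0.83 and -0.26), Phgdh (-0.64 and -0.19) and Mthfd2 (-0.77 and -0.18), of serine and mitochondrial folate metabolism, fell more in WB-F344. Cth, which makes cysteine (-0.28 and -1.03), and Ddit4, an inhibitor of mTORC1 (-0.08 and -0.59), fell more in WB311.

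Of 19 tested cytosolic aminoacyl-tRNA synthetases 4 fell (21.1%, against 7.55% of all tested genes) and 1 rose, 18 were below 0, and the medians were -0.19 in WB-F344 and -0.20 in WB311. Yars1 (-0.40), Wars1 (-0.37) and Cars1 (-0.34) were shared falls, Tars1 (-0.38) fell without being shared, and Qars1 was a shared rise (0.27), which lost its call without WB-F344 vehicle plate 1 or WB311 vehicle plate 2 (0.25 to 0.32 over all settings) and with median centring. Median centring raised the falls of the list from 4 to 8. Yars1 measured 1026, 1136 and 1102 with vehicle and 737, 772 and 777 with rapamycin in WB-F344, and 3217, 3142 and 3176 against 2473, 2723 and 2625 in WB311, a fall from a level that was higher throughout in WB311. The Cars1 probe sets ranged from -0.34 to -0.15.

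The promoters of Trib3, Yars1 and Cars1 are shown since they hold TGATGNAA, the composite element of C/EBP and ATF4, at chr3:161275484-161275783 on the - strand, chr5:146819913-146820212 on the + strand and chr1:208225320-208225619 on the - strand. Capitals mark that element on either strand and, in Cars1, also ACGTG.
Trib3: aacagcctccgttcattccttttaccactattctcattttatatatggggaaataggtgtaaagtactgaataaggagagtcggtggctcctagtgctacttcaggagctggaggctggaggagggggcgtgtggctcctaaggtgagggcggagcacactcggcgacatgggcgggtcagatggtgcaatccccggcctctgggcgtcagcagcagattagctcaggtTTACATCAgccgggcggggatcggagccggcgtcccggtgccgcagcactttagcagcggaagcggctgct
Yars1: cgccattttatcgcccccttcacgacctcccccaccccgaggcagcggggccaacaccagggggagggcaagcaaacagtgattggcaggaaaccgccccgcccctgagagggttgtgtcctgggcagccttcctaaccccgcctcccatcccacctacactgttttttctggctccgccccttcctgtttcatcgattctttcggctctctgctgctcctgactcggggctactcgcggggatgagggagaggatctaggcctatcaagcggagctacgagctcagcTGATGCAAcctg
Cars1: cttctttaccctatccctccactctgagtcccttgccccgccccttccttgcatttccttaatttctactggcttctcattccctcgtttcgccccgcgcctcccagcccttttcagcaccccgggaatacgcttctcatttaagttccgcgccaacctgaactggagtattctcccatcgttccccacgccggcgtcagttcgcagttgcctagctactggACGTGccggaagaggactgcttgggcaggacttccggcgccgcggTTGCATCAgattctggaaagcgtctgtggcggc
The element begins at -21 in Trib3 and at 38 and 17, after the start, in Yars1 and Cars1. It was present in 23.1% of 26 tested ATF4 list genes and 41.2% of 17 tested synthetases, against 1.75% of 6572 tested genes, and in 3.55% of shared falls and 3.28% of shared rises. Of the 4 shared ATF4 list genes with a promoter 1 held it, and of the 5 synthetases with a promoter and a shared probe set 2 did (40.0%).

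Every chaperone that fell on average was also shared. Of 31 tested chaperones and genes of the unfolded protein response 8 fell (25.8%, against 7.55% of all tested genes), 0 rose, and 27 were below 0, with medians of -0.23 and -0.16. With cyclic loess 5 fell and 4 were shared. The 8 were Creld2 (-0.53), Dnajc3 (-0.38), Hyou1 (-0.36), Sel1l (-0.34), Manf (-0.32), Hspa5 (-0.31), Sdf2l1 (-0.27) and Dnajb11 (-0.27), all of the endoplasmic reticulum, while no cytosolic chaperone of the list was called. Outside the list, and named after the values were seen, the cytosolic co-chaperone Fkbp4 (-0.39) and the mitochondrial chaperone Hspa9 (-0.28) were shared falls. Edem1, which directs misfolded proteins to degradation, had a shared fall on a dimmer probe set (-0.36).

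Hspa5, which encodes BiP, the main chaperone of that compartment, measured 7687, 8049 and 8124 with vehicle and 6165, 6137 and 6298 with rapamycin in WB-F344, and 6947, 6821 and 6711 against 5721, 5509 and 5916 in WB311. Creld2, a secreted stress-induced protein, fell from 1908, 1890 and 2136 to 1343, 1407 and 1300 and from 1627, 1589 and 1582 to 1092, 1155 and 1115. Treatments did not overlap for either gene (averages -0.31 ± 0.043 and -0.53 ± 0.049, limma adjusted p = 0.0005 and 4.7e-05). Sdf2l1 lost its call without WB-F344 vehicle plate 3, WB-F344 rapamycin plate 1, or WB311 vehicle or rapamycin plate 3 (-0.30 to -0.22 over all settings), Dnajb11 without WB-F344 vehicle plate 2 or WB311 rapamycin plate 1 (-0.29 to -0.22), and Hyou1 lost the shared status when any of 7 arrays was left out.

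The promoters of Hspa5, Creld2 and Dnajc3 are shown since of the shared falls with a promoter these 3 hold the endoplasmic reticulum stress element, CCAAT and CCACG with 9 bases between, at chr3:38452766-38453065, chr7:121789134-121789433 and chr15:102432417-102432716, all on the + strand. This search was added after the values were seen, and capitals mark the element on either strand and ACGTG in Hspa5 and Dnajc3.
Hspa5: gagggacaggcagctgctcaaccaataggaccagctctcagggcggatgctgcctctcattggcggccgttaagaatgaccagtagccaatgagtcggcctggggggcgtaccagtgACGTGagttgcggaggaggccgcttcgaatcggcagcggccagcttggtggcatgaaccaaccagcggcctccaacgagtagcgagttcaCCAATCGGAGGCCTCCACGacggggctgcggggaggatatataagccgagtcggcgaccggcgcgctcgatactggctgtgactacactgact
Creld2: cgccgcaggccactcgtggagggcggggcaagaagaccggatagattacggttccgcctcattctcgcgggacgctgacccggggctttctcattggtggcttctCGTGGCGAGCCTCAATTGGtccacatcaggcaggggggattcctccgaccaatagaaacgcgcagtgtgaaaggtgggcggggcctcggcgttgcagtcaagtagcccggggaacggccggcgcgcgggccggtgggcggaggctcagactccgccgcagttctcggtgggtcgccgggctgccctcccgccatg
Dnajc3: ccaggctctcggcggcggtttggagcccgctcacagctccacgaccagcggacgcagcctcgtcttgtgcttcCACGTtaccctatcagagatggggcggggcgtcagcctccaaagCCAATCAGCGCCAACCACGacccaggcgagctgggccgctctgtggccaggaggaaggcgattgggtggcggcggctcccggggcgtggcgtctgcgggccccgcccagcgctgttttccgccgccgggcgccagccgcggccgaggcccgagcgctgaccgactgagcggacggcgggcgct
The element begins at -43, -145 and -133. It was found in 3 of 8 chaperone genes with a promoter and a shared probe set (37.5%), 7 of 27 tested ones (25.9%), and 0.213% of 6572 tested genes. CCAAT, the box of NF-Y, which the element contains, was present in 8 of the 8, in 47.2% of shared falls, 37.7% of shared rises and 38.8% of tested genes, and in 6 of 9 shared and 12 of 15 tested genes of cholesterol synthesis. The sterol element TCACNCCAC was found in 0 of those 15, and in 1.10% of tested genes.

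**Figure D4:**
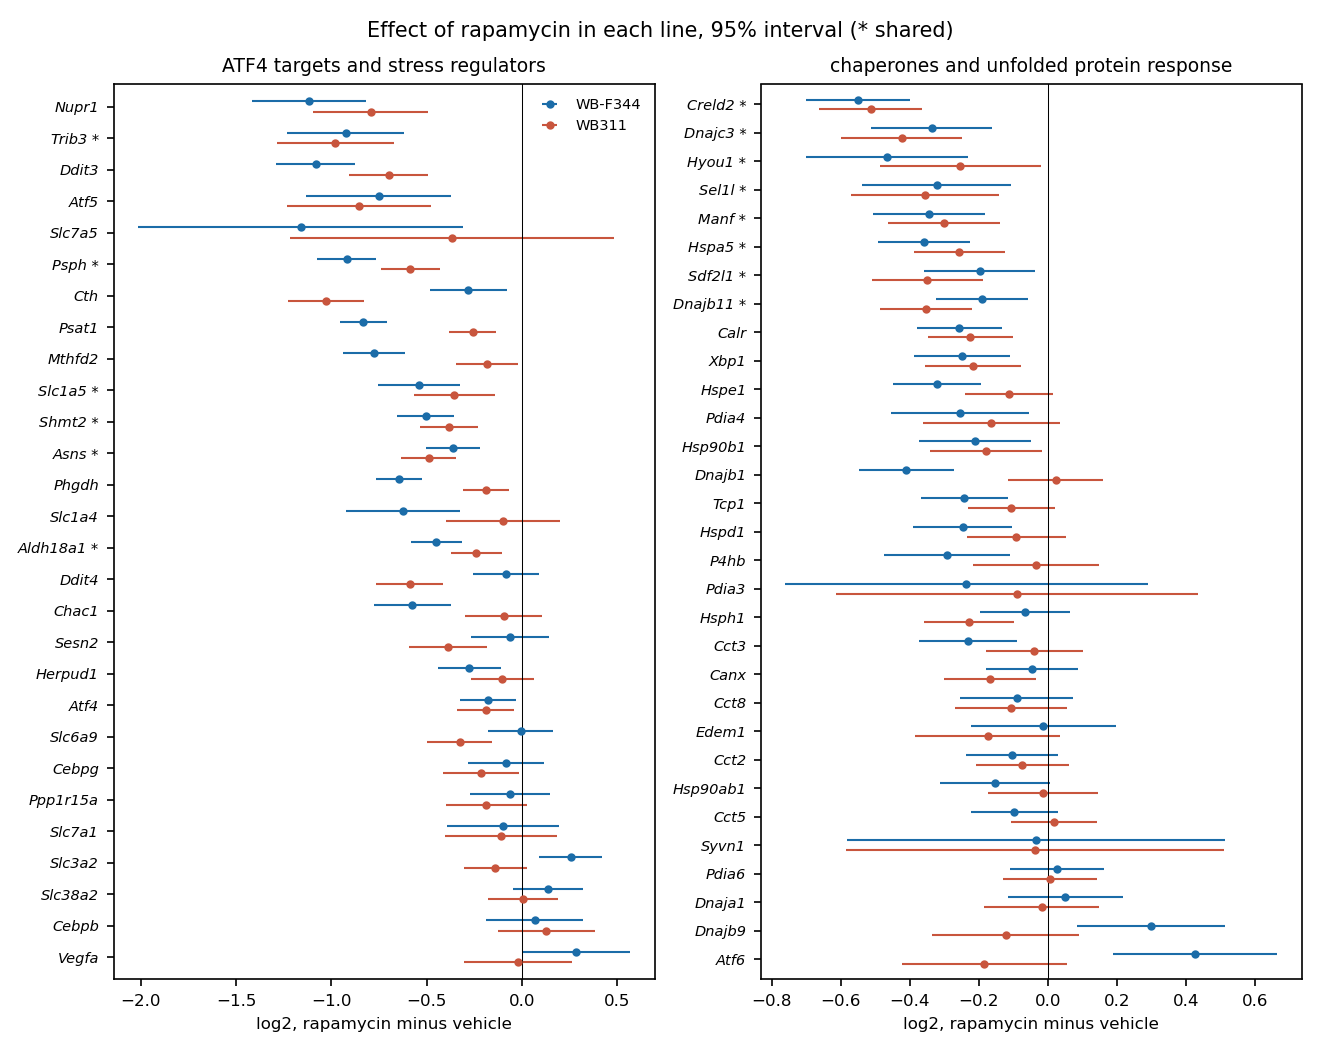
Rapamycin effect in WB-F344 (blue) and WB311 (red) for the 28 tested ATF4 targets and stress regulators and the 31 tested chaperones and unfolded protein response genes, as log2 of rapamycin minus vehicle with the 95% interval of the limma fit, 3 plates per group, and an asterisk for shared genes. The lines separate for Cth, Psat1, Mthfd2 and Phgdh on the left, while the 8 falls on the right overlap between the lines.

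mTORC1 controls the translation machinery mainly at the protein level. Of 38 tested translation factors 2 rose and 2 fell (5.26% each), near the 4.69% and 7.55% of all tested genes. Eif4b, the cofactor of the helicase that opens mRNA for the ribosome, measured 1112, 989 and 1154 with vehicle and 1529, 1571 and 1537 with rapamycin in WB-F344, and 1700, 1732 and 1676 against 2478, 2610 and 2660 in WB311. Its treatments lay far apart in each line (average 0.56 ± 0.050, limma adjusted p = 4.4e-05), though its other probe set gave only 0.24. Eif3f was a smaller shared rise (0.28), Eif2b4 a shared fall (-0.39), and Eif2b2 was at -0.97 in WB-F344 and 0.06 in WB311.

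None of 39 tested ribosomal protein genes was called by limma, although 37 had an average above 0, and the medians were 0.06 in WB-F344 and 0.03 in WB311 (0.10 and 0.06 with cyclic loess). Rps6, the substrate by which mTORC1 activity is often read, was at 0.07. Of 48 genes of ribosome biogenesis 45 were below 0, against 4516 of all 7719 tested genes, but the median was only -0.12. In this list 4 fell (8.33%, near the 7.55% of all tested genes), of which Rrp9 (-0.33), Noc4l (-0.33) and Fbl, fibrillarin (-0.31), were shared. Of 52 genes of oxidative phosphorylation 3 fell (5.77%, against 7.55% of all tested genes), each shared (1 with cyclic loess), namely Cyc1 (-0.33), Ndufb9 (-0.28) and Ndufa9 (-0.27), the last of which lost its call without WB-F344 vehicle plate 1, WB-F344 rapamycin plate 2 or WB311 rapamycin plate 1 (-0.30 to -0.22 over all settings).

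Of 27 genes of the mTOR pathway 1 rose and 0 fell, with medians of 0.01 in both lines (-0.03 and 0.00 with median centring). The rise was that of Irs2, an adaptor of the insulin receptor (0.43, with 0.24 in WB-F344 and 0.62 in WB311), and it was not shared. Mtor (0.05), Rps6kb1, which encodes S6 kinase (0.15), Eif4ebp1 (-0.19) and Rictor (0.32) were not called.

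Among 21 FoxO factors and their targets 7 rose (33.3%, against 4.69% of all tested genes) and 2 fell (9.52%, against 7.55%), and 4 rises were shared. Klhl24 and Ccnd1, described above, belong to the list, although FoxO is known to lower Ccnd1. Foxo1 rose from 85.2, 94.9 and 114 to 141, 125 and 136 in WB-F344 and from 122, 119 and 119 to 137, 139 and 154 in WB311, without overlap but close to the intensity limit, which it passed in WB-F344 through rapamycin plates alone (average 0.36 ± 0.070, limma adjusted p = 0.0038), and it was not shared without WB311 vehicle plate 2 or 3 or WB311 rapamycin plate 3. Txnip, an inhibitor of glucose uptake, rose by 0.32 and Gadd45a fell (-0.37).

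Of 37 lysosomal and autophagy genes 6 rose (16.2%, against 4.69% of all tested genes) and 2 fell, and 3 rises were shared, with medians of 0.16 in WB-F344 and 0.02 in WB311. With median centring 3 rose and 1 rise was shared, and with cyclic loess these were 9 and 4. Ctsa, cathepsin A, was at 0.43 (0.57 and 0.29), while Map1lc3a (0.28) and Glb1 (0.27) lost their calls with median centring. Map1lc3a also lost its call without WB-F344 vehicle plate 1 or 3, WB-F344 rapamycin plate 2, WB311 vehicle plate 1 or 2, or WB311 rapamycin plate 1 or 3 (0.22 to 0.32 over all settings). Glb1 lost its call without WB-F344 vehicle plate 3, WB-F344 rapamycin plate 2, or plate 2 of either WB311 treatment (0.23 to 0.31). Ctsd, cathepsin D, rose mainly in WB-F344 (0.64 and 0.16, difference called). Sqstm1, the autophagy receptor p62, was a shared fall at -0.44 that lost this status without any of 10 arrays, and its other probe set was at -0.01.

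Of 21 immediate early and ERK feedback genes 11 rose (52.4%, against 4.69% of all tested genes) and 0 fell, but only Dusp1, a phosphatase of MAP kinases, was shared (0.45, with 0.38 and 0.53). Egr1 was at 0.93 and 0.98, alike in estimate with an interval of the difference from -0.53 to 0.63. Myc (1.44 and 0.50) and Junb (0.99 and 0.44) rose in both lines, more in WB-F344. Of 17 targets of YAP and serum response factor 5 rose (29.4%), of which Lats2, a kinase that inhibits YAP, was shared (0.37), Edn1, endothelin 1, rose in both lines (0.71 and 0.96), and Ccn2, connective tissue growth factor, was at 0.02 in WB-F344 and 0.80 in WB311. Gadd45b was likewise at -0.02 and 1.11.

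The DNA replication and mitosis lists held no shared gene. Of 41 DNA replication genes 17 fell for the average (10 with cyclic loess and 8 in the additive fit), 0 were shared and 32 had a called difference, with medians of -0.51 in WB-F344 and 0.01 in WB311. Of 35 mitosis genes the counts were 15 (6 in the additive fit), 0 and 28, with medians of -0.61 and 0.08. Cdt1, which licenses replication origins (-0.80 and -0.04), and Aurka, a mitotic kinase (-0.93 and 0.02), show why their average (-0.42 and -0.45) describes neither line. Of 17 hypoxia targets outside glycolysis 8 fell (47.1%, against 7.55% of all tested genes) and 2 rose (11.8%, against 4.69%). Of these targets 8 had a called difference and only Higd1a (-0.37) and Egln3 (0.36) were shared, in opposite directions. The 34 tested extracellular matrix genes had 9 rises (26.5%) and 8 falls (23.5%), against 4.69% and 7.55% of all tested genes, with 14 called differences.

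The largest average effects called together with a difference were the rises of Mgp, matrix Gla protein (2.11), Ptgs2, cyclooxygenase-2 (1.42), Sorbs2 (1.35), Ccl2, a chemokine (1.13), and Sox17 (0.996), and the falls of Rhpn2 (-0.95), Tent5a (-0.91), Eno3, the muscle enolase (-0.88), Creb3l1 (-0.84) and Loxl2 (-0.82). All 10 moved more in WB-F344. Mgp measured 265, 284 and 259 with vehicle and 3709, 3727 and 3620 with rapamycin in WB-F344, and 235, 238 and 284 against 377, 325 and 331 in WB311.

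**Figure D5:**
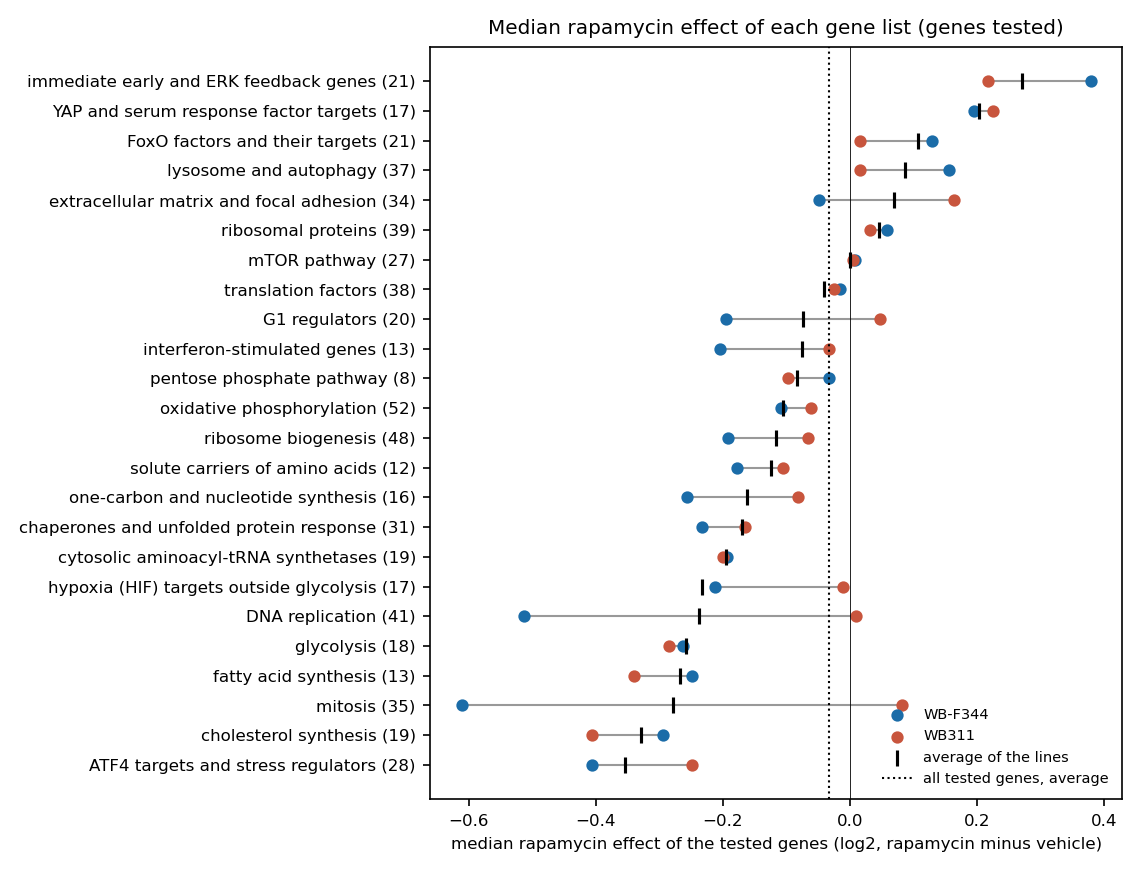
Median rapamycin effect of each list of 8 or more tested genes (horizontal axis, log2 of rapamycin minus vehicle), in WB-F344 (blue), WB311 (red) and averaged (black mark), with the number of genes tested in parentheses and the average of all tested genes dotted. The lines nearly coincide for glycolysis and aminoacyl-tRNA synthetases, and lie far apart for DNA replication and mitosis.

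The levels of the lines with vehicle differed by a median of 0.38 on the log2 scale for shared probe sets, against 0.31 for all tested and 0.53 for the called probe sets with a called difference. Among the remaining lists, 16 one-carbon and nucleotide synthesis genes had 3 falls (18.8%) with 1 shared, and 12 amino acid carriers had 2 falls (16.7%) with 1 shared, against 7.55% falls of all tested genes. The 8 genes of the pentose phosphate pathway had none called. Of 13 interferon-stimulated genes 3 rose and 3 fell, with 1 shared in each direction, and of 20 G1 regulators 3 rose and 1 fell, with Ccnd1 the shared one and none shared with cyclic loess.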

How the data were processed

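RNA of 12 cultures, 3 plates of each line and treatment, was hybridized to 1-color rat expression arrays, 1 array per plate. The deposited values are intensities that the authors background-corrected and normalized across arrays with RMA (version not given in the sources used here) and put on a linear scale. Probe sets were named through the platform annotation and RefSeq (GRCr8): of 31042, 20826 had 1 symbol, 436 several and 9780 none, and 20758 gene identifiers were found in RefSeq. A gene was counted by its brightest probe set.

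The log2 of each intensity was fitted with limma 3.58.1 (R 4.3.3) on 4 groups, with the line as a block through contrasts within each line, empirical Bayes variances and Benjamini-Hochberg adjustment over all 12182 tested probe sets. Calls needed an adjusted p under 0.05 and a fold change of at least 1.2. The variance of a probe set was common to the 4 groups, so the interval and p-value of each line also reflect the spread of the other. The fit was also run on simulated data with independent plates and an equal spread in all groups. That run does not cover the larger spread and joint deviation of the WB-F344 plates. Named genes were the 15 largest shared rises and falls without overlap of the treatments in either line. Added to these were up to 4 per list, 5 with a called difference in each direction, and genes that the study names. Not every gene so selected is described. Further tested members of the lists are described by no fixed rule, with their values known. The members and the gene lists were chosen with earlier results of these data known. The number of arrays limits the precision. Tables were prepared with pandas 2.3.3 and plots with matplotlib 3.10.9. Alternatives were other scalings, filters, blocks, array weights, difference bounds, call rules, a two-sample t-test and leaving out each array.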

Additional observations from a re-analysis of the deposited data

Results flagged for a closer look

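For 27 genes named in the text, limma's test of the difference between the effects in the lines was past an adjusted p of 0.05, 21 with the larger effect in WB-F344 and 6 with the larger effect in WB311. Values are the log2 effect in WB311 minus that in WB-F344. Among rises on average the difference was -3.32 for Mgp, -2.51 for Ptgs2, -2.36 for Sorbs2, -1.59 for Ccl2, -1.01 for Sox17, -0.94 for Myc, -0.545 for Junb and -0.47 for Ctsd, and it was 1.13 for Gadd45b and 0.78 for Ccn2. Among metabolic and translation genes it was -0.75 for Cth, -0.71 for Pfkp, -0.46 for Msmo1, 0.37 for Cndp2, 0.46 for Phgdh, 0.57 for Psat1, 0.59 for Mthfd2, 0.94 for Eno3 and 1.03 for Eif2b2, and for Ddit4 it was -0.51. Among cell cycle genes it was 0.49 for Ccne1, 0.77 for Cdt1 and 0.95 for Aurka. Of the remaining genes that fell on average, Creb3l1 had a difference of 0.83, Loxl2 of 1.003, Tent5a of 1.40 and Rhpn2 of 1.86.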

How the results depend on the processing

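No called gene among those printed changed sign under the alternatives run. Small list medians did: with cyclic loess the average of the translation factors went from -0.04 to 0.01 and the extracellular matrix in WB-F344 from -0.05 to 0.02, the pentose phosphate pathway in WB-F344 from -0.03 to 0.06, and with median centring the mTOR pathway from 0.00 to -0.02. Of 116 called genes among 131 printed, 92 were called in all 19 settings run for single genes and 108 without any 1 array, and of 80 shared genes 53 were shared without any 1 array. Against 1427 calls, 473 shared responses, 468 called differences among the calls and 71.8% same sign, leaving out 1 array gave 1272 to 1807, 397 to 606, 350 to 595 and 67.2% to 72.1%. The numbers of the plates pair nothing by the labels, and same-numbered plates deviated together in WB-F344 (0.721, 0.889 and 0.602) but not in WB311 (-0.063, -0.015 and -0.188). Plates 1 and 3 of WB-F344 also deviated together across numbers (0.644 and 0.621). Plate 2 deviated against both (-0.829 to -0.704), so the pattern is not one of pairing by number. With a replicate block, 724 were shared (464 of them also in the fit without it) and 743 differed, and WB311 by itself gave 923 calls against 401. Without the WB-F344 plates numbered 2, 721 were shared and 731 differed, and with array weights 719 differed. The additive fit called 1143 for the average, since its residual holds the interaction. It tests no difference, and 273 of its calls had a difference called in the fit on 4 groups. A limma call in each line by itself gave 177 probe sets, 147 of them shared, and a two-sample t-test in each line 78 and 60. That t-test was adjusted over all tested probe sets, whereas the study's methods dropped changes under 1.2-fold before testing. A difference bound of 1.3-fold in place of 1.5-fold left 194 shared. The median of the hypoxia list over all its probe sets was -0.12, and that of the biliary list with the stricter filter 0.21. The causes were not tested.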
